A study of Mus musculus with 18 samples.

Results

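The data set comprised 10 genes commonly used to mark the epicardium and other mesothelium, measured by bulk RNA sequencing of mouse heart tissue. The genes were Wt1, Upk3b, Upk1b, Krt19, Krt8, Krt18, Krt7, Msln, Lrrn4 and Dmkn. They were taken by symbol from a table of 25230 gene symbols, in which all 10 were found. The rule that lists them uses no measured value, though the list was made with earlier results of these data known.

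Male C57BL/6J mice had the left anterior descending coronary artery tied off, and 3 heart regions were taken 3 days after the infarction. The regions were the atria, the infarcted left ventricle (LV) and the non-infarcted LV. Mice had been treated with liraglutide, an agonist of the glucagon-like peptide 1 receptor, or with PBS, the vehicle. Each of the 6 combinations of region and treatment had 3 libraries, called biological replicates in the labels, giving 18 in all. The groups were thus atria with liraglutide, atria with PBS, infarcted LV with liraglutide, infarcted LV with PBS, non-infarcted LV with liraglutide and non-infarcted LV with PBS. Every group came from infarcted hearts of 1 strain and 1 sex, and sham-operated mice were not analysed here. The labels give neither the age of the mice nor the dose of liraglutide, and do not say whether libraries of different regions came from the same animals.

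The epicardium is the thin mesothelial sheet on the outer surface of the heart. Mesothelial cells line the body cavities and combine epithelial features, such as simple-epithelium keratins, with surface proteins of their own, such as mesothelin and uroplakin 3B. WT1 is a zinc-finger transcription factor of the embryonic epicardium, where it takes part in the formation of mesenchymal cells. After infarction in mice, Wt1 expression has been described in the epicardium and in endothelial cells of coronary vessels.

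Library totals ran from 4280459 to 21853482 counts with a median of 11586459.5, so that 3 counts, the floor used here for detection, corresponded to 0.137 to 0.701 CPM. CPM is a gene's count scaled so that every library has the same total. The region labels matched the tissue: the summed CPM of 7 atrial cardiomyocyte markers was 38437 to 54186 in atria and 166 to 558 in LV. A pair of atrial libraries stood apart in markers of other tissue. In atria with PBS replicate 2, 8 adipocyte markers summed to 829 CPM, against 15.3 to 55.2 CPM in the other 5 atrial libraries. In atria with liraglutide replicate 3, 6 ventricular cardiomyocyte markers summed to 2465 CPM, against 839 to 1409 CPM in the other 5.

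In the GENCODE annotation of GRCm38 (mm10) the 10 genes are protein-coding and lie on 7 chromosomes. Wt1 (chr2:105126529-105173616, plus strand) and Lrrn4 (chr2:132868305-132880891, minus strand) share chromosome 2. The 3 keratin genes Krt7 (chr15:101411043-101430313, plus strand), Krt8 (chr15:101996698-102004482, minus strand) and Krt18 (chr15:102028180-102032027, plus strand) share chromosome 15, with 23.7 kb between Krt8 and Krt18. Krt19 is at chr11:100140810-100148665 on the minus strand, Upk3b at chr5:136038496-136046487 on the plus strand and Upk1b at chr16:38773184-38800328 on the minus strand. Msln is at chr17:25748613-25754378 on the minus strand and Dmkn at chr7:30763756-30781063 on the plus strand. Counts were per gene, so positions within introns, exons or UTRs were not resolved.

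Promoter sequences of 3 of the atrial genes are shown because each held a motif searched for, in the 250 bases before the start that RefSeq gives on GRCm38.p6. They are written 5′ to 3′ on the gene's own strand. Capitals mark GGAATG or its reverse complement CATTCC (the core bound by TEAD factors) in Upk3b (chr5:136038246-136038495, plus strand) and Lrrn4 (chr2:132880863-132881112, minus strand), and TGANTCA (the AP-1 site) in Dmkn (chr7:30763506-30763755, plus strand).
Upk3b: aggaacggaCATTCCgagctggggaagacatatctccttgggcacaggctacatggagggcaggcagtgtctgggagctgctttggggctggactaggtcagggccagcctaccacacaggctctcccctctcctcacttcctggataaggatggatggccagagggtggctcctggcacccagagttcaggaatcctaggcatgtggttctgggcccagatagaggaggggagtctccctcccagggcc
Lrrn4: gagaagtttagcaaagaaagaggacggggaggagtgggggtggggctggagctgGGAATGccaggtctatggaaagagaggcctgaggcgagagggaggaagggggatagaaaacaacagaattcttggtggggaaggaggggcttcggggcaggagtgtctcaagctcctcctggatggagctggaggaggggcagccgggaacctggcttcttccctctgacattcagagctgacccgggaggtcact
Dmkn: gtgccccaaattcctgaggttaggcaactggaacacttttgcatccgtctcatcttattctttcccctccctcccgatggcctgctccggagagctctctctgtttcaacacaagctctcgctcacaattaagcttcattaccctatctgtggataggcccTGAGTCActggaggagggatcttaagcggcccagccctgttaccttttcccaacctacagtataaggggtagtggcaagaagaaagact
Sequences were matched for 6 of the 10 genes, the others being Krt7, Krt8 and Krt18. Both strands were searched, and no 2 marked matches overlapped. GGAATG was found 241 bases before the start in Upk3b and 196 bases before it in Lrrn4, and in 12.6% of 32851 promoter windows of the same length over all genes. TGANTCA was found 89 bases before the start in Dmkn and in 6.75% of all windows. GGGCGG, the GC box, was found 4 times in Krt7, and in 32.7% of all windows. GCGTGGG, the core shared by WT1 and EGR factors, was in none of the members' windows and in 4.30% of all windows. These matches describe letters in a window and were not tested as binding sites.

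Among the 9 genes other than Wt1, mesothelin (Msln), a surface glycoprotein of mesothelial cells, had the highest CPM in each of the 6 atrial libraries. It stood at 84.2, 105 and 63.0 CPM in atria with liraglutide and at 72.0, 108 and 83.2 CPM in atria with PBS. In LV it was at 2.67, 4.02 and 1.46 CPM with liraglutide and 2.79, 2.14 and 0.934 CPM with PBS in the infarcted part, and at 1.74, 1.27 and 0.250 CPM with liraglutide and 1.18, 1.13 and 0 CPM with PBS in the non-infarcted part. Every atrial library lay above every LV library. Against non-infarcted LV, the log2 fold change in atria was 6.24 ± 0.450 with liraglutide and 6.52 ± 0.418 with PBS (± SE; adjusted p = 3.98e-05 and 2.46e-05). All adjusted p-values come from the quasi-likelihood F test of edgeR, corrected by the Benjamini-Hochberg method for every gene in the fit, and calls were made below 0.05.

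The uroplakin gene Upk3b encodes a membrane protein of the urothelial plaque that is also a surface marker of mesothelium. It was at 41.7, 59.5 and 28.3 CPM in atria with liraglutide and 52.7, 83.4 and 61.8 CPM in atria with PBS. Its LV values were 0.467 to 2.79 CPM in the infarcted part and 0 to 0.646 CPM in the non-infarcted part, with no overlap with the atria. Upk1b, the gene of a tetraspanin-type uroplakin, was at 9.60, 11.04 and 8.19 CPM in atria with liraglutide and 9.13, 16.7 and 14.2 CPM in atria with PBS. In LV it reached at most 0.598 CPM, and 3 of 12 LV libraries had no count of it. Upk3b was higher in atria than in non-infarcted LV by 6.70 (liraglutide) and 6.91 (PBS) on the log2 scale, and Upk1b by 6.89 and 6.66, all with adjusted p of 0.000121 or less. Upk1b passed the filter on low counts in no fit of LV libraries alone, and Upk3b only in that of infarcted LV between treatments. Both were tested here through their atrial counts, so these adjusted p-values are a description.

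Lrrn4, the gene of a leucine-rich repeat membrane protein of mesothelial cells, was at 6.35, 10.4 and 5.45 CPM in atria with liraglutide and 9.29, 16.2 and 11.7 CPM in atria with PBS. Dmkn encodes dermokine, a secreted protein also made in the epidermis. It was at 11.2, 18.5 and 8.88 CPM in atria with liraglutide and 13.1, 23.4 and 14.7 CPM in atria with PBS. In LV neither gene exceeded 0.650 CPM, and Dmkn had no more than 4 counts in any LV library. Because its LV counts were so few, the Dmkn ratio is best read with its counting interval. Pooled over libraries, 625 counts in atria against 5 in non-infarcted LV with liraglutide gave a CPM ratio of 101 (95% exact interval 43.0 to 312), and 699 against 3 with PBS gave 222 (75.6 to 1078). Such intervals cover counting error only, and fitted log2 fold changes of such genes depend on the prior count.

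The keratins of simple epithelia form filaments from pairs of a type I and a type II protein, of which keratin 8 (type II) with keratin 18 (type I) is the classical pair. Krt8 was at 35.4, 40.5 and 33.6 CPM in atria with liraglutide and 42.1, 65.8 and 46.5 CPM in atria with PBS. Krt18 was at 22.4, 31.1 and 24.3 CPM in atria with liraglutide and 31.9, 38.9 and 29.9 CPM in atria with PBS. Both genes were present in all 6 atrial libraries at levels of the same order, while in LV Krt8 reached at most 2.69 CPM and Krt18 at most 2.59 CPM. Krt8 has a processed pseudogene, Krt8-ps on chromosome 7, which the table does not list. Reads shared with it could not be separated, so the Krt8 level is uncertain to that extent.

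Krt19, a type I keratin, was at 18.2, 25.8 and 17.8 CPM in atria with liraglutide and 26.9, 31.8 and 21.9 CPM in atria with PBS. Krt7, a type II keratin, was at 7.58, 10.2 and 4.94 CPM in atria with liraglutide and 7.79, 8.02 and 5.59 CPM in atria with PBS. LV libraries reached 1.30 CPM of Krt19 and 0.701 CPM of Krt7, far below the lowest atrial value of each. Krt7 had 366 counts in atria against 2 in non-infarcted LV with liraglutide, a pooled CPM ratio of 148 (40.6 to 1224), and 285 against 2 with PBS, a ratio of 136 (37.2 to 1126). Of the 4 keratins Krt18 had the smallest difference between atria and non-infarcted LV, a log2 fold change of 4.27 ± 0.405 with liraglutide and 5.13 ± 0.253 with PBS.

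Against non-infarcted LV, 9 of the 10 genes were higher in atria in both treatments and Wt1 did not pass the test. Over all genes tested, 24.6% were called higher and 22.9% lower with liraglutide (47.5% in either direction), and 26.3% higher and 25.6% lower with PBS (51.8%). For the same 9 genes the libraries of the 2 regions did not overlap, which held in the same direction for 30% of genes with liraglutide and 37% with PBS. The fitted log2 fold changes of the 9 genes were 4.27 to 7.07 with liraglutide and 5.13 to 7.41 with PBS. Of these 9, 6 passed the filter on low counts in no fit of LV libraries alone, and Upk3b in 1 only, so that their number among the tested genes is a description. In bulk tissue, fewer cells of a type and less RNA per cell cannot be told apart.

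Against infarcted LV, the 9 genes were again higher in atria, with log2 fold changes of 4.11 to 6.27 with liraglutide and 4.44 to 6.99 with PBS, and Wt1 was lower. Over all genes tested, 43.2% were called with liraglutide (22.1% higher, 21.2% lower) and 52.3% with PBS (26.2% higher, 26.1% lower). The libraries did not overlap for any of the 10 genes, 9 being higher and Wt1 lower. Over all genes this was so for 25.1% higher and 28.5% lower with liraglutide, and for 32.1% higher and 28.4% lower with PBS. Both comparisons use the same atrial libraries, so their values are not independent of each other. Since LV counts were few, single LV libraries moved the size of these differences by more than 1.5-fold. No call was lost, which is a description for genes that passed the filter through their atrial counts. Without non-infarcted LV PBS replicate 1 the log2 fold change of Krt8 was 8.67 in place of 6.43 and that of Krt7 5.83 in place of 6.66. Without replicate 2 of that group Upk1b stood at 7.96 in place of 6.66 and Dmkn at 8.32 in place of 7.41.

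With liraglutide, leaving out non-infarcted LV replicate 1 gave 6.77 in place of 6.10 for Krt19 and 4.92 in place of 4.27 for Krt18. Leaving out replicate 2 of that group gave 8.08 in place of 6.64 for Dmkn, 7.65 in place of 6.89 for Upk1b, 5.87 in place of 5.20 for Lrrn4 and 6.44 in place of 7.07 for Krt7. Infarcted LV PBS replicate 1 carried the highest LV value of Upk3b, Upk1b, Krt8, Krt18 and Krt19. Without it the atrial difference from infarcted LV was 6.61 in place of 5.41 for Upk3b, 6.53 in place of 5.31 for Upk1b, 7.01 in place of 5.36 for Krt19, 6.27 in place of 5.10 for Krt8, 5.38 in place of 4.44 for Krt18 and 7.76 in place of 6.99 for Dmkn. Without replicate 2 of that group Lrrn4 stood at 5.36 in place of 4.77 and Dmkn at 6.22, and without replicate 3 Krt7 stood at 5.51 in place of 4.80. Without infarcted LV liraglutide replicate 2 Krt7 stood at 7.05 in place of 5.82, Krt8 at 6.34 in place of 5.52 and Upk1b at 5.55 in place of 4.89, and without replicate 3 Dmkn stood at 7.07 in place of 6.27.

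**Figure D1:**
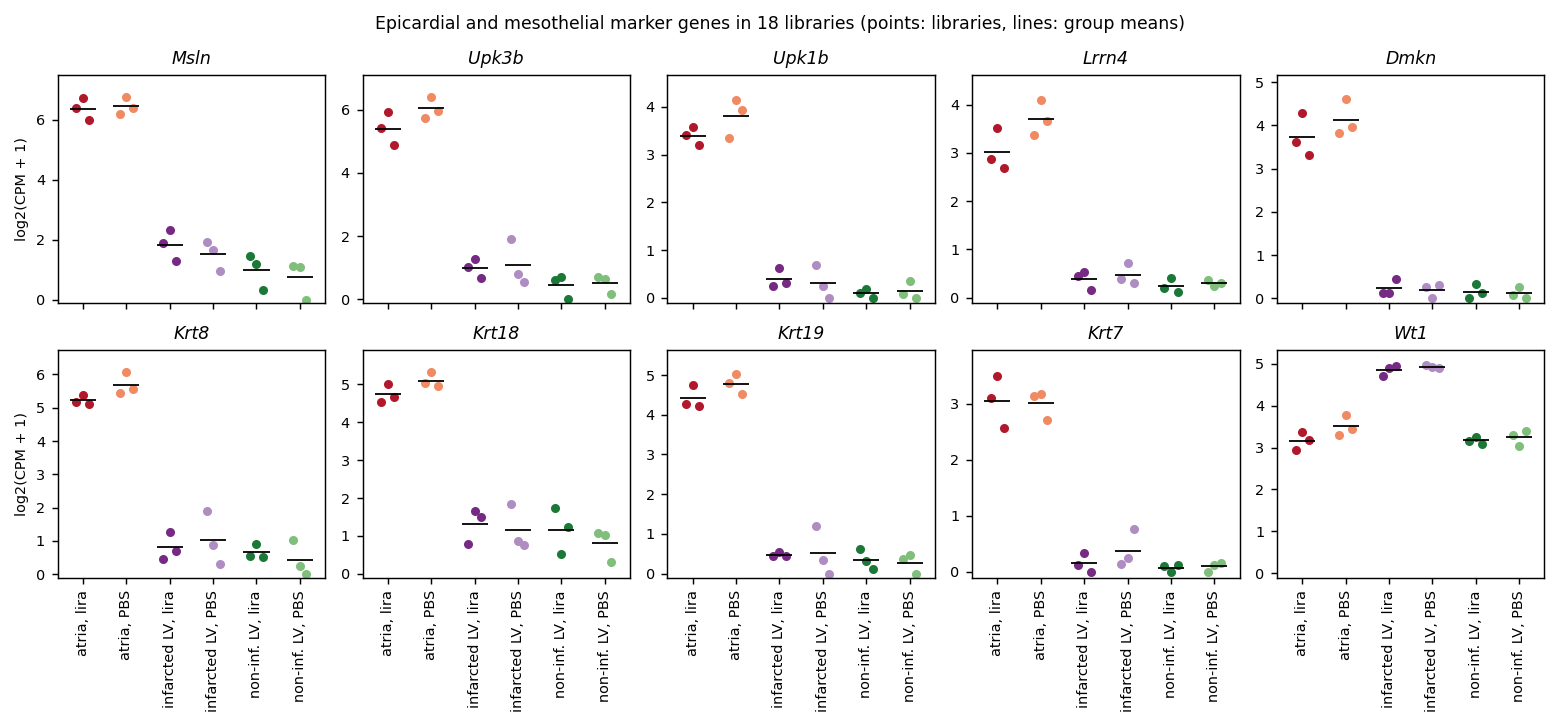
Level of each of the 10 genes in each of the 18 libraries, as log2(CPM + 1) on the vertical axis of each panel (points are libraries, lines are means of 3 libraries, groups run along the horizontal axis). The 9 genes other than Wt1 are high in the 6 atrial libraries and low in the 12 LV libraries, while Wt1 is highest in the 6 infarcted LV libraries, at 25.1 to 30.4 CPM.

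**Figure D2:**
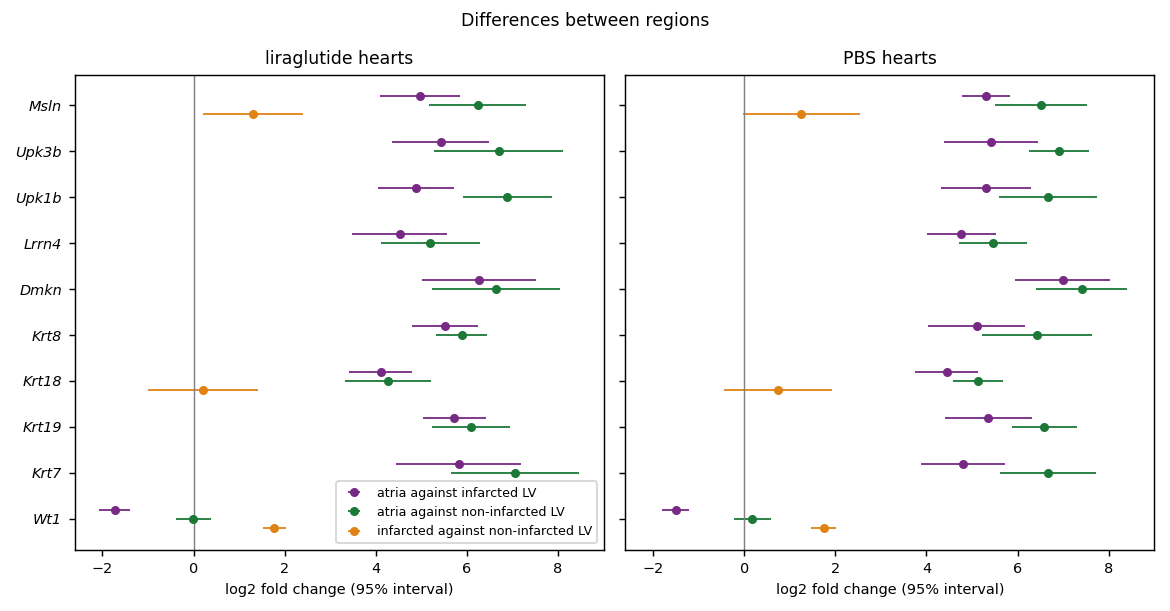
Fitted log2 fold change between regions for each gene (points) with its 95% interval (lines), liraglutide hearts on the left and PBS hearts on the right. Msln, the uroplakins, Lrrn4, Dmkn and the keratins lie between 4.11 and 7.41 in both atrial comparisons, and Wt1 lies at -1.73 and -1.51 against infarcted LV. Genes under the filter on low counts have no point for infarcted against non-infarcted LV.

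The atria also contained low levels of markers of other epithelia. Of 12 lung epithelium markers, Cldn18, Slc34a2 and Nkx2-1 had no count in any library, and the summed level of the list was 2.74 to 11.6 CPM in atria and 0.834 to 3.78 CPM in LV. Sftpc had counts in atria with liraglutide and Sftpd in both atrial groups, and neither had any in LV. Scgb3a2 had counts in infarcted LV and none in atria. Napsa, the gene of an aspartic protease of lung alveolar cells, was the one of the 12 tested between regions. It was higher in atria than in non-infarcted LV with liraglutide (log2 fold change 3.10) and with PBS (3.00), and than in infarcted LV with PBS (2.94). With liraglutide its difference between atria and infarcted LV was 0.82 (adjusted p = 0.168), and it was higher in infarcted than in non-infarcted LV (2.30). The 5 markers of thymus and stratified epithelium summed to 5.86 to 27.6 CPM in atria, of which Krt14 made up most, and to at most 1.21 CPM in LV. Psmb11 had no count in any atrial library but had counts in non-infarcted LV with liraglutide. Foxn1 had counts in atria with liraglutide and Krt5 in atria with PBS, and neither had any in LV. In atria the sums of both lists lay below the summed level of the 9 genes, 194 to 393 CPM. In LV the 9 genes summed to 3.50 to 13.4 CPM in the infarcted and 0.719 to 5.92 CPM in the non-infarcted part. There the lung sum was not always lower. In non-infarcted LV with PBS replicate 3 it was 1.68 CPM, against 0.719 CPM for the 9 genes. The part of other epithelia in the levels of the 9 genes was not tested.

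Levels of different genes were compared per kilobase of exons. In atria, mean CPM per kb was highest for Msln, at 27.4 ± 6.85 with liraglutide and 28.7 ± 6.09 with PBS (SD, n = 3 each). Krt8 followed at 18.6 ± 1.85 and 26.3 ± 6.43, and Krt18 at 18.05 ± 3.19 and 23.3 ± 3.30, in the same order of treatments. With PBS these 3 lay within 1 SD of their neighbours, as did Krt8 and Krt18 with liraglutide, so that their order was not resolved. Upk3b stood at 12.2 with liraglutide and 18.7 with PBS, and Krt19 at 11.1 and 14.5. The remaining means with liraglutide and with PBS were 5.86 and 7.78 for Dmkn, 4.60 and 6.39 for Upk1b, 2.00 and 3.33 for Lrrn4, 1.29 and 1.69 for Wt1 and 1.08 and 1.01 for Krt7. Upk3b and Krt19, and Dmkn and Upk1b, differed by less than the larger SD of the pair in both treatments. In all 4 LV groups the mean was highest for Wt1 and next for Krt18. In non-infarcted LV with liraglutide these 2 differed by less than the SD of Krt18, and in each LV group Krt18 differed by less than its SD from the gene after it, so that those places were not resolved. Wt1 was at 4.50 ± 0.393 CPM per kb in infarcted LV with liraglutide and 4.75 ± 0.139 with PBS, where Krt18 was at 1.09 ± 0.514 and 0.957 ± 0.734.

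Wt1 was the gene of the 10 with another regional pattern. It was at 25.1, 28.9 and 29.6 CPM in infarcted LV with liraglutide and 30.4, 29.1 and 28.7 CPM in infarcted LV with PBS. In non-infarcted LV it was at 7.96, 8.54 and 7.51 CPM with liraglutide and 8.87, 7.24 and 9.47 CPM with PBS. All 6 infarcted libraries lay above all 6 non-infarcted ones, and the spread within groups was small.

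The increase of Wt1 in infarcted against non-infarcted LV was 3.42-fold with liraglutide (log2 fold change 1.77 ± 0.120, SE, adjusted p = 2.66e-08) and 3.34-fold with PBS (1.74 ± 0.131, adjusted p = 8.22e-08). In these comparisons 49.8% of all tested genes were called with liraglutide (27.3% higher, 22.4% lower) and 47.4% with PBS (25.7% higher, 21.7% lower), and for 31.4% in each the libraries did not overlap in that direction. A larger log2 fold change than that of Wt1 was found for 247 of 13022 genes with liraglutide (1.90%) and for 197 of 12831 with PBS (1.54%). Leaving out each library in turn kept the log2 fold change between 1.72 and 1.85 with liraglutide and between 1.61 and 1.83 with PBS.

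In atria Wt1 was at 6.71, 9.30 and 8.01 CPM with liraglutide and 8.90, 12.6 and 9.90 CPM with PBS. These values overlap those of non-infarcted LV and lie below all values of infarcted LV. The difference from non-infarcted LV was -0.00025 with liraglutide (95% interval -0.381 to 0.381, adjusted p = 0.999) and 0.18 with PBS (-0.227 to 0.581, adjusted p = 0.445) on the log2 scale. Relative to infarcted LV, Wt1 in atria was lower by a log2 fold change of -1.73 with liraglutide (adjusted p = 2.18e-05) and -1.51 with PBS (adjusted p = 2.19e-06). Wt1os, the antisense gene that starts 18 bases from Wt1 on the other strand without overlapping it, was at 0.229 to 0.955 CPM in atria and at most 0.199 CPM in LV, with no more than 2 counts in any LV library.

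Wt1 is transcribed in cell types other than the epicardium, and markers of these differed between the regions too. All 8 endothelial markers and all 8 fibroblast markers were higher in infarcted than in non-infarcted LV in both treatments. Over all genes 27.3% were called higher with liraglutide and 25.7% with PBS. Median log2 fold changes of the endothelial and fibroblast markers were 0.965 and 1.12 with liraglutide and 1.01 and 1.22 with PBS, against -0.0217 and -0.0215 for all genes. The endothelial markers summed to 2022 to 2508 CPM in infarcted LV, 1135 to 1305 CPM in atria and 1107 to 1185 CPM in non-infarcted LV. Wt1 amounted to 1.11 to 1.43% of the endothelial sum in infarcted LV, against 0.611 to 0.855% in non-infarcted LV, and those ranges did not overlap. Of the fibroblast sum it made up 1.47 to 1.85% in infarcted and 0.895 to 1.34% in non-infarcted LV, again without overlap. The part of endothelial cells and fibroblasts in the Wt1 level was not tested.

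**Figure D3:**
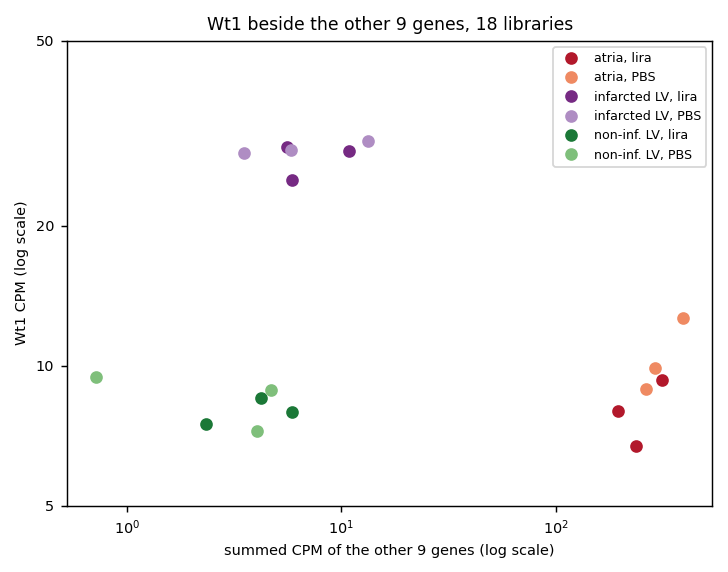
Wt1 CPM (vertical axis) against the summed CPM of the other 9 genes (horizontal axis), both on log scales, with 1 point per library. The atrial libraries lie at a sum of 194 to 393 CPM with low Wt1, and the infarcted LV libraries lie above the non-infarcted ones in Wt1 at sums that overlap.

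The ratio of Wt1 to the sum of the other 9 genes was 0.0284 to 0.0412 in atria, 2.28 to 8.20 in infarcted LV and 1.35 to 13.2 in non-infarcted LV. The atrial ratios were thus narrow and apart from those of LV, whereas the ratios of the LV regions overlapped. The highest ratio, in non-infarcted LV with PBS replicate 3, came from a sum of only 6 counts of the 9 genes.

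In LV the 9 genes were close to the limit of detection, and between infarcted and non-infarcted LV only Wt1, Msln and Krt18 passed the filter on low counts. Of these 3, Wt1 and Msln were called higher with liraglutide and Wt1 alone with PBS. Over all genes tested, 27.3% were called higher with liraglutide and 25.7% with PBS. The Msln values given above overlapped between the LV regions in both treatments. Its log2 fold change in infarcted against non-infarcted LV was 1.31 ± 0.498 with liraglutide (adjusted p = 0.0499) and 1.25 ± 0.581 with PBS (adjusted p = 0.101). With the replicate number as a block the adjusted p was 0.00343 with liraglutide and 0.00802 with PBS, the second a call that the unblocked fit does not make. The liraglutide call was lost without infarcted LV replicate 1 (adjusted p = 0.122), without infarcted LV replicate 2 (0.194), and without non-infarcted LV replicate 2 (0.0953) or replicate 3 (0.0781). It was also lost with no filter (0.0549) and with all 18 libraries in the fit (0.111), whereas with PBS Msln was called with no filter (0.0331).

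Krt18 was at 0.737, 2.15 and 1.83 CPM in infarcted LV with liraglutide and 2.59, 0.835 and 0.701 CPM in infarcted LV with PBS. In non-infarcted LV it was at 2.35, 0.446 and 1.33 CPM with liraglutide and 1.12, 1.03 and 0.240 CPM with PBS. The regions overlapped fully, and the log2 fold changes of 0.20 ± 0.546 with liraglutide and 0.73 ± 0.547 with PBS did not pass the test (adjusted p = 0.786 and 0.293). The other 7 genes had too few counts in LV to pass the filter. With no filter Upk3b was called higher in infarcted LV with liraglutide (log2 fold change 1.29, adjusted p = 0.0429) and with PBS (1.51, 0.0164). Neither DESeq2 nor the fit of all 18 libraries called it, and its libraries overlapped between the LV regions in both treatments. The largest sum of these 7 genes over 3 LV libraries was 38 counts, of Upk3b in infarcted LV with PBS. Of those counts, 28 were in replicate 1. Non-infarcted LV with PBS had 18 counts, a CPM ratio of 3.03 (95% exact interval 1.69 to 5.64). With liraglutide the corresponding Upk3b counts were 32 and 17, a ratio of 2.54 (1.37 to 4.88). Besides Wt1, Upk1b with liraglutide was the one gene whose libraries did not overlap between the LV regions, on 10 counts in infarcted and 3 in non-infarcted LV, a ratio of 4.51 (1.16 to 25.5). That makes 2 of the 10 genes with liraglutide. Of the 3 that passed the filter it was Wt1 alone, where 31.4% of all genes past the filter showed this.

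Among the 9 genes, the shares of their summed counts were similar from library to library in atria. Msln made up 27.2 to 35.6%, Upk3b 14.6 to 21.4%, Krt8 13.0 to 17.3% and Krt18 9.46 to 12.5% in the 6 atrial libraries. Pooled over 6 libraries per region, Krt18 was 10.6% of the sum in atria (95% exact interval 10.2 to 11.02), 19.2% in infarcted LV (15.6 to 23.2) and 28.6% in non-infarcted LV (23.5 to 34.0). Dmkn was 5.35% in atria (5.07 to 5.63), 1.81% in infarcted LV (0.783 to 3.53) and 2.66% in non-infarcted LV (1.15 to 5.17). For Msln the pooled share was 30.6% in atria, 31.8% in infarcted LV and 25.9% in non-infarcted LV, with overlapping intervals for atria and both LV regions. Shares of single LV libraries rest on 6 to 134 counts and ranged widely for Krt18, from 12.5 to 32.6% in infarcted LV and from 10.6 to 57.1% in non-infarcted LV, so they overlap those of atria.

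**Figure D4:**
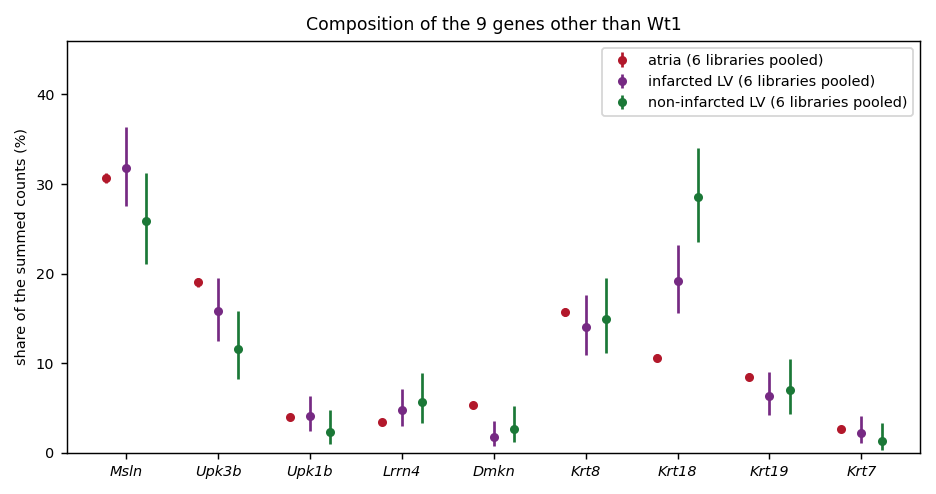
Share of each gene in the summed counts of the 9 genes other than Wt1 (vertical axis, percent), pooled over the 6 libraries of each region (points), with exact 95% intervals for counting error (lines). Krt18 holds 10.6% of the sum in atria, 19.2% in infarcted LV and 28.6% in non-infarcted LV.

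Further epicardial and mesothelial genes were set beside the 10, in comparisons that share the non-infarcted LV libraries. Of 21 such genes listed, 20 were in the table, Muc16 being the other. In atria against non-infarcted LV with PBS, 13 of 20 tested were higher and 0 lower (26.3% and 25.6% of all genes). Their median log2 fold change was 1.88, against 0.00677 for all genes. Of these 20, 16 passed the filter on low counts between the LV regions, and the others entered through their atrial counts. The number higher and the median are thus a description. Gata5, a transcription factor gene of the epicardium and endocardium, averaged 21.0 ± 3.81 CPM in atria and 0.181 ± 0.0579 CPM in non-infarcted LV, both with PBS (SD, n = 3 each, log2 fold change 6.58). Nkain4 averaged 5.99 ± 1.47 CPM and 0.110 ± 0.0143 CPM in the same groups (5.51). The extracellular matrix gene Efemp1 stood at 37.0 ± 4.86 and 6.37 ± 1.69 CPM (2.38), and Clu, the gene of the secreted chaperone clusterin, at 4248 ± 315 and 874 ± 71.0 CPM (2.16).

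In infarcted against non-infarcted LV with PBS, 12 of the 16 tested genes of this list were higher and 1 was lower (25.7% and 21.7% of all genes), with a median log2 fold change of 0.935 against -0.0215 for all genes. The 4 with the smallest p were Podxl, a sialomucin gene also expressed in endothelium (log2 fold change 1.00), the complement gene C3 (1.36), the heparan sulfatase gene Sulf1 (1.04) and Efemp1 (1.38). Gata4, a transcription factor gene that cardiomyocytes express as well, was the lower one (-0.41). Gata5, Nkain4, Bnc1 and Rspo1, named after their values were seen, had too few LV counts for the test, as had 7 of the 10 marker genes. With liraglutide the counts were 10 higher and 1 lower of 16 between the LV regions (27.3% and 22.4% of all genes). Between atria and non-infarcted LV they were 13 higher and 1 lower of 20 (24.6% and 22.9% of all genes), again with genes that entered through their atrial counts.

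A further list held 24 epithelial junction and other keratin genes. In atria against non-infarcted LV with PBS, 9 of 14 tested were higher and 1 lower (26.3% and 25.6% of all genes). Between the LV regions only 9 of the list passed the filter on low counts. Some of the 14 thus entered through their atrial counts, and the number higher is a description. Ppl, the gene of the junction protein periplakin, averaged 58.4 ± 9.01 CPM in atria and 8.61 ± 1.91 CPM in non-infarcted LV (log2 fold change 2.61), and Ezr, the gene of the membrane linker ezrin, 176 ± 17.6 and 59.6 ± 7.82 CPM (1.43). Dsg2 (0.83) was higher too, and Dsp, a desmosome gene strongly expressed in cardiomyocytes, was lower (-0.96). Between infarcted and non-infarcted LV with PBS, 3 of 9 tested were higher, among them Ppl (0.94) and Tjp1 (0.44), and 3 lower (Dsg2 -0.70, Dsp -0.31, Pkp2 -0.24), the lower ones being desmosome genes. Over all genes 25.7% were higher and 21.7% lower, near the shares of this list. Of 8 other uroplakin and tetraspanin genes only Cd9 and Cd151 were tested in both comparisons, and the tetraspanin gene Cd9 was higher in atria (1.63) and in infarcted LV (1.10) than in non-infarcted LV with PBS.

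Of 15 genes of epithelial to mesenchymal transition, 11 were higher and 1 lower in infarcted than in non-infarcted LV with PBS (25.7% and 21.7% of all genes). Fibronectin (Fn1) stood at a log2 fold change of 1.23, vimentin (Vim) at 1.27, Tgfb1 at 0.92 and Pdgfrb at 0.64, while N-cadherin (Cdh2), also the cadherin of cardiomyocytes, stood at -0.46. In atria against non-infarcted LV with PBS, 8 of 15 were higher and 3 lower (26.3% and 25.6% of all genes). The higher ones included Vim (1.20), Zeb2 (1.22), Tgfb1 (0.72) and Fn1 (1.43). The 3 lower ones were Cdh2 (-1.05), Pdgfrb (-0.96) and Snai2 (-2.31). Fibroblasts and other stromal cells express most of these genes, and their part was not tested.

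Liraglutide against PBS gave no call for any of the 10 genes in any region. In atria, 0 of 10 were called, where 0.00739% of all genes were (1 of 13530 in edgeR, 929 at an unadjusted p under 0.05, and 118 adjusted in DESeq2). The Krt8 values listed above were the one case without overlap, lower in all 3 liraglutide libraries, where 12% of all genes showed this. Its log2 fold change was -0.39 ± 0.178 (adjusted p = 0.744). Lrrn4 had the largest difference, -0.64 ± 0.310 (95% interval -1.35 to 0.075, adjusted p = 0.766), and Upk3b the next, -0.49 ± 0.317 (-1.24 to 0.258, 0.846). Upk1b stood at -0.37, Dmkn at -0.30, Wt1 at -0.29, Krt19 at -0.28 and Krt18 at -0.27, while Krt7 stood at 0.18 and Msln at 0.05. The median over the 10 genes was -0.296, against -0.00282 for all genes.

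Single atrial libraries weighed on these values. Of the 9 genes other than Wt1, 8 had their lowest atrial level in liraglutide replicate 3, the library with the highest ventricular marker sum, and 8 had their highest in PBS replicate 2, the library with the highest adipocyte marker sum. Without both libraries the log2 fold changes were -0.15 for Lrrn4, -0.08 for Krt8 and for Wt1, -0.07 for Krt18, -0.03 for Upk3b and -0.02 for Krt19. Upk1b was then at 0.0030, Dmkn at 0.25, Msln at 0.43 and Krt7 at 0.53, and again 0 of 10 were called. PBS replicate 2 also had the highest atrial marker sums of lung epithelium (11.6 CPM) and of thymus and stratified epithelium (27.6 CPM). The same held for its macrophage and neutrophil marker sum (624 CPM). In the other atrial libraries these 3 sums reached at most 6.07, 14.1 and 482 CPM. The part of other tissue in liraglutide replicate 3 and PBS replicate 2 was not tested.

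**Figure D5:**
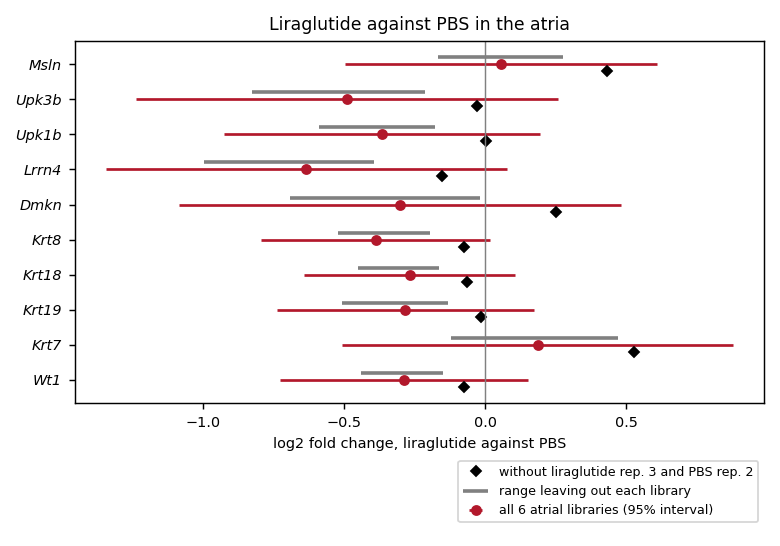
Log2 fold change of each gene for liraglutide against PBS in atria (circles, horizontal axis) with its 95% interval, the range when each library is left out in turn (grey bars), and the value without liraglutide replicate 3 and PBS replicate 2 (diamonds). Every 95% interval includes 0, and without those 2 libraries Lrrn4 stands at -0.15 and Krt7 at 0.53.

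In infarcted LV, 0 of 4 tested members were called, as were 0 of 12988 genes (681 at an unadjusted p under 0.05, and 1 adjusted in DESeq2). In non-infarcted LV, 0 of 3 tested members and 0 of 12919 genes were called (561 unadjusted, and 2 in DESeq2). The share of genes called was thus 0% in both. Wt1 had a log2 fold change of -0.07 ± 0.103 in infarcted LV (95% interval -0.291 to 0.147) and -0.11 ± 0.155 in non-infarcted LV (-0.441 to 0.228). Msln stood at 0.40 ± 0.385 and 0.35 ± 0.745 in those regions. The liraglutide effect on Wt1 differed by 0.04 ± 0.209 between infarcted and non-infarcted LV, by -0.18 ± 0.218 between atria and non-infarcted LV and by -0.22 ± 0.205 between atria and infarcted LV, on the log2 scale. In these 3 contrasts 0 of 10 members and 0 of 13920 genes were called, with 174, 750 and 903 genes at an unadjusted p under 0.05 and 0, 58 and 30 adjusted in DESeq2.

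Within groups, genes were ranked by how closely their deviations from group means followed the mean profile of the 10, on the log2(CPM + 1) scale, over 18 libraries and 13012 genes. Among the closest outside the 10 were Ezr (Pearson r = 0.82), the iron reductase gene Cybrd1 (0.82), the keratin gene Krt14 (0.80) and Esrp2, an epithelial splicing regulator gene (0.79). Of the 10 themselves, Upk3b was closest to their mean (0.91), Wt1 stood at 0.58 and Krt7 was the farthest (0.30). Each of the 10 is part of the mean it was set against, so these values cannot be compared with those of genes outside. These correlations share the library and its depth at each point and are given as a description. They include atria PBS replicate 2 and atria liraglutide replicate 3. Of the 9 genes other than Wt1, 8 had their highest atrial level in the first and 8 their lowest in the second. The part of these 2 libraries in the correlations was not tested. Krt14 was at 5.67 to 27.2 CPM in atria and at most 0.411 CPM in LV, so that it also shared the regional pattern of the 9 atrial genes.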

How the data were processed

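Bulk RNA sequencing of 18 libraries was used, made from polyadenylated RNA (TRIzol extraction, stranded TruSeq library kit), per the labels' protocols. The deposited table holds raw read counts per gene symbol, made by the authors. Per the submitters' processing notes the mm10 build, STAR 2.7.9a and DESeq2 were used. Which program counted reads, with what gene models and strand option, is not given in the sources used here. Members and all gene lists were chosen with earlier results of these data known.

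CPM were computed from column totals. Each of 9 comparisons was fitted on its own 6 libraries with edgeR 4.0.16 in R 4.3.3 (filterByExpr, TMM factors, robust quasi-likelihood F test), and 3 contrasts between regions on all 18. P-values were adjusted over all tested genes and SE was derived from the F statistic. The fit was tried on simulated counts of genes past the filter, with the same spread for every gene. That setting does not cover genes near the floor in LV or differences as large as those between atria and LV. Alternatives were DESeq2 1.42.0, no filter, RLE factors, a filter at a CPM of 1 in 3 libraries, all 18 libraries in 1 fit, a replicate block, and libraries left out. Descriptions used Python 3.11.15 and pandas 2.3.3.

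Named genes were the 10 members, up to 4 per list and direction with the smallest p and a mean CPM of at least 1 in the PBS region comparisons, and the 5 genes most like the members; some of these are not reported here. Replicate numbers come from the titles, which do not say that a number marks 1 animal. For infarcted against non-infarcted LV, deviations of same-numbered libraries correlated at 0.122 to 0.166 with liraglutide and 0.152 to 0.173 with PBS. For atria against non-infarcted LV with PBS they correlated at 0.112 to 0.188. In these comparisons every pair lay above 0.1, so the numbers may mark pairs there. In the other 6 that did not hold for every pair, which does not show that the libraries were unpaired. The labels number the libraries alike in the 3 regions. Within groups no library repeated another (chi-square per degree of freedom 2.55 to 59.0). P-values measure the spread between these libraries, which may be technical in part. Of 25230 symbols, 5537 had no count.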

Additional observations from a re-analysis of the deposited data

How the results depend on the processing

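The 12 counts of members called kept within 1.5 times of the value given under DESeq2, RLE factors and the stricter filter. For infarcted against non-infarcted LV with PBS, 1 member was called, 3 with no filter and 2 with the replicate block, the paired fit that added Msln. With liraglutide 2 were called, 1 with all 18 libraries in the fit, and 1 to 2 leaving out each library; with no filter the number was again 2, with Upk3b called and Msln not. The block changed no other call of a member.

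Directions that turned belong to values that passed no test, and the cause was not tested. Wt1 in atria against non-infarcted LV with liraglutide was 0.0024 with RLE factors, 0.029 with all 18 libraries and -0.163 to 0.0814 leaving out each library. Leaving out each library, Krt18 in infarcted against non-infarcted LV ran from -0.271 to 0.845 with liraglutide and from -0.181 to 1.11 with PBS. For liraglutide against PBS the ranges were -0.122 to 0.469 for Krt7 and -0.167 to 0.274 for Msln in atria, -0.13 to 0.0078 for Wt1 and -0.025 to 0.714 for Msln in infarcted LV, and -0.087 to 0.811 for Msln in non-infarcted LV. The Wt1 contrast between the LV regions ran from -0.047 to 0.169. Without atria liraglutide replicate 3 and PBS replicate 2, liraglutide against PBS in atria was 0.0030 for Upk1b and 0.25 for Dmkn, and the Wt1 contrasts of atria were 0.0496 against non-infarcted and 0.0095 against infarcted LV.

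Over all genes, liraglutide against PBS in atria called 1 gene, against 118 in DESeq2, 94 with all 18 libraries, 80 without those 2 libraries, 3 with no filter, 0 with the block and 0 to 105 leaving out each library. In infarcted LV 0 were called, against 1 in DESeq2, 35 with no filter and 0 to 3 leaving out each library, and in non-infarcted LV 0, against 2, 5 and 0 to 2. The contrasts of atria called 0, against 58 and 30 in DESeq2, 61 and 37 without those 2 libraries, and up to 118 and 117 leaving out 1. Low LV counts limit what 7 of the 10 genes can show between the LV regions.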
